A study of Mus musculus with 10 samples.

Results

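The genes described here are those of 4 signalling pathways that pattern tissues in the embryo and are used again in repair: WNT, hedgehog, Notch and the TGF-beta family. Probes were taken by gene symbol, with the WNT ligands, Frizzled receptors, Dishevelled, Sfrp, Dkk, Axin, Lef1 and Tcf7 genes, the CCN family, the hedgehog ligands with Ptch, Smo, Sufu and Gli, the Notch receptors, ligands and Hes and Hey genes, and the TGF-beta, BMP, GDF, inhibin, activin receptor and SMAD genes. The cDNA array held 99 such probes, for 98 genes, of 5030 probes for 4605 named genes in all. Whole-number spot intensities could be recovered for 97 of them, and those for Tgfbi and Dll3 were left out.

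Each of the 10 arrays was hybridized with labelled cDNA from 1 pool of 8 urinary bladders of female mice. PAR1-/- mice lack the thrombin receptor PAR1 in all cells and had been enriched in the C57BL/6J background, and C57BL/6J mice served as WT. Both genotypes received into the bladder either E. coli LPS (strain 055:B5, 100 µg/ml), the bacterial lipopolysaccharide that activates innate immune cells, or substance P (SP), a neuropeptide of sensory nerves, and bladders were removed after 24 h or 4 h. Saline arrays, 1 per genotype, exist at 24 h only, so every ratio at 4 h also crosses times. For SP the labels give 20 µM in PAR1-/- mice and 10 µM in WT mice, while the methods give the lower dose for all, so dose and genotype cannot be told apart in the SP arrays. The study asked which genes respond to inflammation in WT mice and not in PAR1-/- mice. Each condition is 1 array, so a ratio between arrays has no replicate check, and in whole bladders fewer cells of a type and less RNA per cell cannot be told apart.

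In the WNT pathway, secreted WNT ligands bind Frizzled receptors, Dishevelled proteins pass the signal on, Axin proteins hold beta-catenin in check, and TCF/LEF factors carry the response to DNA, while Sfrp and Dkk proteins block the ligands or their co-receptors outside the cell. Hedgehog ligands relieve the block that Ptch1 places on Smo, which frees GLI factors from their inhibitor Sufu, and in the bladder hedgehog from the urothelium is known to signal to the stroma below it. Notch receptors are cut when a Delta or Jagged ligand on the next cell binds them and switch on Hes and Hey repressors. TGF-beta, activin and BMP ligands bind paired kinase receptors that phosphorylate SMAD proteins, and SMAD7 feeds back to shut those receptors off.

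The promoters of 3 genes on which the results turn are given first, since they stood apart from saline at LPS 4 h in WT mice and had none of the low spots described below. They are Ccn1 and Tgfbr1, which passed 3-fold of saline there, and Dvl3, which came close. The sequences are the 250 bases before the start site in RefSeq, 5′ to 3′ on the gene's strand, with capitals for matches of the motifs searched.
Ccn1 (GRCm38.p6 chr3:145649986-145650235, minus strand): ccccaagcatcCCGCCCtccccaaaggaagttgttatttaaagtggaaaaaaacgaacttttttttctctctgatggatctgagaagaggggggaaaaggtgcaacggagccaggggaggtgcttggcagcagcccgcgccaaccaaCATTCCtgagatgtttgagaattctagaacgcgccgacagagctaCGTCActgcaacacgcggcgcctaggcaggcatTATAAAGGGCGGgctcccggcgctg
Tgfbr1 (GRCm38.p6 chr4:47352972-47353221, plus strand): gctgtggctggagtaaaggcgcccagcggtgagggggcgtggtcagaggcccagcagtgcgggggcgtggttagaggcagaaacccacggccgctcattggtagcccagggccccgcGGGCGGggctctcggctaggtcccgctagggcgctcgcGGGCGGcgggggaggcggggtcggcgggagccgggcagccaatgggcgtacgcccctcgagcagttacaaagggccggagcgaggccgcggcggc
Dvl3 (GRCm38.p6 chr16:20516736-20516985, plus strand): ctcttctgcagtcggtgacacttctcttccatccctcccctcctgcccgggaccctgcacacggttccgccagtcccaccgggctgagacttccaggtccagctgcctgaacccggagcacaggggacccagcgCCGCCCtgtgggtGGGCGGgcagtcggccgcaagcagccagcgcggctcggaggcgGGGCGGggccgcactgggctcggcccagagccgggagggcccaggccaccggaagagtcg
Of the 98 genes, 64 had an entry in the promoter table, Smad7 is not shown, and for Tgfbr1 the more upstream of 2 starts was taken. The motifs were searched on both strands. They were the letters CATTCC for TEAD factors, the effectors of Hippo signalling, and the letters TGACG for CREB (the CRE core site). Further motifs were TGANTCA for the AP-1 dimers of Fos and Jun and the general promoter elements TATAAA (the TATA box) and GGGCGG (the GC box). For the pathways themselves they were ATCAAAG for TCF/LEF factors, TGGGAA for RBP-J, the DNA-binding partner of Notch, and the palindrome GTCTAGAC for SMAD proteins. The CArG box of serum response factor was searched as well. The Ccn1 promoter held 1 TEAD match, which starts at base -103 from the start site, 1 CRE core site at -58, 1 TATA box at -25 and 2 GC boxes, the second directly after the TATA box. Among all 32851 promoters of the table, 12.6% held a TEAD match, 17.8% a CRE core site, 12.4% a TATA box and 32.7% a GC box in the same window. The Tgfbr1 and Dvl3 promoters held GC boxes only, 2 and 3, and were rich in G and C at 74.8% and 72.8%, against 54.8% for Ccn1 and a median of 52.4% over the table. AP-1, TCF/LEF, RBP-J, SMAD palindrome and CArG box matches, which 6.75%, 3.21%, 21.6%, 0.167% and 1.47% of all promoters held, were in none of the 3.

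The arrays differed in brightness and in how far the background reached. Total intensity over the 4966 recovered probes ran from 69398 to 273662 per array, and the background threshold (the mode plus 3 SD of the values below it) from 12.8 to 33.0. On the array of WT bladders 24 h after LPS, 4322 probes (87.0%) held exactly 15, 85 of the 97 members among them, and the next value used by more than 1 probe was 29, so low values there are bounds. Of 626 probes with a median over 40, 37 had a low spot, a value at or under the background mode of its array. On WT LPS 24 h, where the mode is the fill value, only values under 15 counted as low spots. Most of these low spots were shared by pairs of arrays, and the rest were not. The PAR1-/- arrays of LPS 24 h and saline shared 13 such probes, and the WT arrays of LPS 24 h and saline 8. The PAR1-/- and WT arrays of SP 24 h shared 6. No other pair of arrays shared more than 1, and no 4 h array had any. Sfrp1, Sufu and Hey2 are 1 member in each pair, and their ratios are given with and without those spots; what lowered them was not tested. Across the 2011 probes above background on at least 4 arrays, Pearson's r between arrays was 0.86 to 0.92 among the 4 challenged PAR1-/- arrays, 0.78 to 0.87 among the saline arrays and the WT arrays at 24 h, 0.86 between the WT arrays at 4 h and 0.63 to 0.82 between these 3 sets. Probes within an array are not independent replicates. The probe for the deleted gene F2r was above background on 3 of 5 PAR1-/- arrays and on 1 of 5 WT arrays, with intensities of 18, 17, 21, 51 and 11 in PAR1-/- mice and 15, 195, 11, 22 and 10 in WT mice, and so did not check the genotype labels. Summed marker intensities before normalization ran from 95 to 348 for smooth muscle, from 57 to 231 for urothelium and from 91 to 225 for leukocytes. The saline arrays, close in total, had smooth muscle sums of 173 in PAR1-/- mice and 95 in WT mice, of which Acta2 alone made up 112 and 23. Fibroblast sums ran from 73 to 249 and endothelium sums from 90 to 635. The endothelium sums were 409, 469, 502 and 635 on the challenged PAR1-/- arrays and 90 in PAR1-/- saline. In WT mice they were 157, 299, 95 and 434 in the same order and 101 in saline. The sums thus carry the brightness of each array. Total intensity in that order was 151240, 150031, 160129 and 273662 on the challenged PAR1-/- arrays and 69398 in PAR1-/- saline. In WT mice it was 113648, 159625, 73673 and 238341, and 72209 in saline. Above background on at least 4 arrays were Upk2, Krt19 and Cdh1 of 5 urothelium probes, 6 of 7 smooth muscle probes, and Csf1r, Itgb2 and S100a9 of 8 leukocyte probes, while Cd68, Cd3e and S100a8 never were. Of 6 fibroblast probes Pdgfra and Vim reached that, and of 6 endothelium probes only Tie1. Acta2, the actin of smooth muscle, was the only marker of these lists beyond 3-fold of saline. It had intensities of 131, 152, 151, 29 and 112 on the PAR1-/- arrays of LPS 24 h, LPS 4 h, SP 24 h, SP 4 h and saline. On the matching WT arrays Acta2 was at 136, 194, 44, 69 and 23. Its normalized ratios to saline were 0.274, 0.315, 0.296 and 0.0383 in PAR1-/- mice and 3.74, 4.26, 2.16 and 0.871 in WT mice. The part of cell composition in the results below was not tested.

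Most of the pathway genes sat low on these arrays. Of the 97 members, 37 were above background on no array (38.1%, against 35.6% of all probes), 25 on 1 to 3 arrays, 27 on 4 to 9 and 8 on all 10, and the 35 above background on at least 4 arrays made up 36.1% of the members, where 40.5% of all probes reached that. The 8 seen on every array were Wnt6, Fzd7, Fzd8, Axin2, Ccn1, Gli1, Dll1 and Gdf5. Per array, 10.3% (WT, LPS 24 h) to 44.3% (PAR1-/-, SP 4 h) of the members were above background. By role, 2 of 13 WNT ligands and 1 of 3 hedgehog ligands were above background on at least 4 arrays. The counts were 1 of 2 Notch ligands, 0 of 3 TGF-beta ligands, 2 of 4 GDFs and 0 of 5 inhibin and activin subunits. Among genes grouped as BMPs by name alone, Bmp1 with them, 4 of 10 were above background on at least 4 arrays. Of the receptors, 3 of 5 Frizzled, 0 of 1 hedgehog, 1 of 3 Notch and 3 of 9 TGF-beta family receptors were. Of the components inside the cell, 5 of 7 in the WNT pathway, 3 of 4 in the hedgehog pathway and 2 of 7 SMAD genes were, as were 3 of 8 Hes and Hey probes, 3 of 7 secreted WNT inhibitors and 2 of 5 CCN genes. The members never above background had intensities between 7 and 22.

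**Figure D1:**
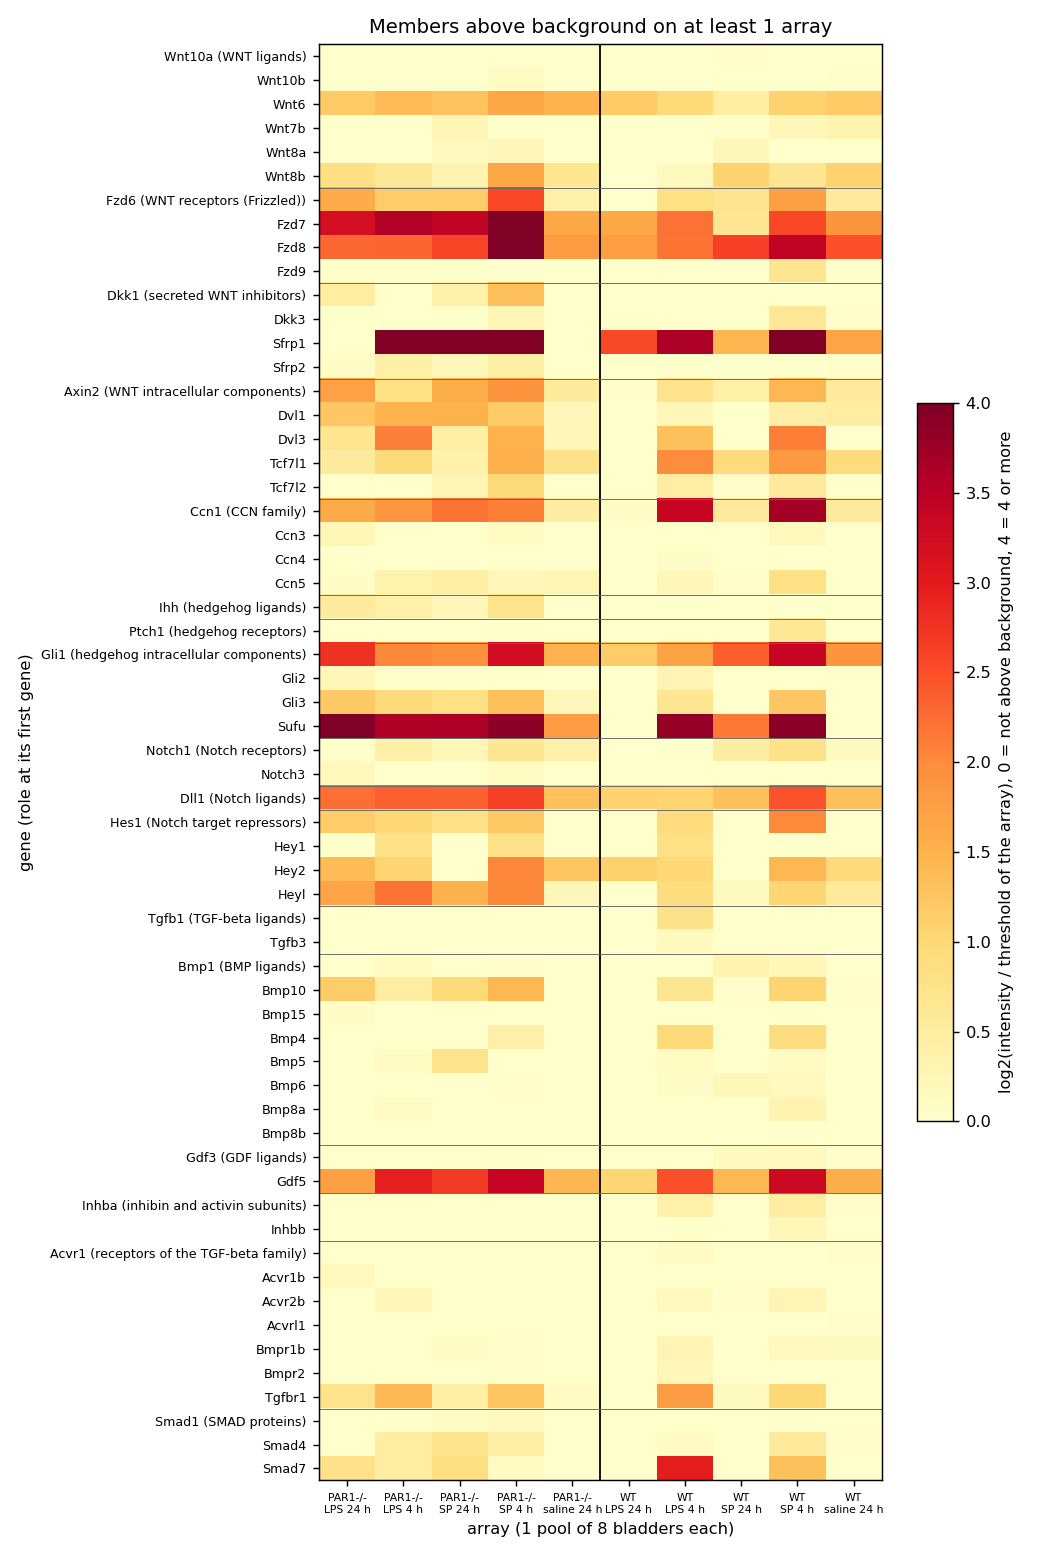
Each row is a member above background on at least 1 array, grouped by role, and each column 1 array, PAR1-/- on the left and WT on the right; the colour is the log2 of spot intensity over the threshold of that array, with the palest colour for spots not above background. Fzd7, Fzd8, Gli1, Dll1 and Gdf5 are coloured in all 10 columns, and the WT column of LPS 24 h is pale for most members.

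Each challenged array was set against the saline array of its genotype, after the arrays had been normalized to each other. Where one of the 2 spots was not above background, the ratio is a bound, and where neither was, there is none. The challenged arrays were brighter than saline, and normalization moved the median log2 ratio of probes above background on both arrays by -2.32 to -1.17 in PAR1-/- mice and by -1.79 to -0.97 in WT mice, WT SP 24 h apart, where it moved it little. So ratios below are relative to that shift, and a modest decrease can be an increase before normalization. As a yardstick, the log2 ratio of the PAR1-/- saline array to the WT saline array had an SD of 0.49 over the 1135 probes above background on both, which is 1.40-fold, and 7 of these probes differed by more than 3-fold. In PAR1-/- mice, 0 of 29 members with a ratio exceeded 3-fold at LPS 24 h (1.10% of all probes did), 1 of 30 at LPS 4 h (1.64%), 1 of 30 at SP 24 h (1.53%) and 1 of 28 at SP 4 h (1.21%), and in the last 3 the member was Sfrp1. In WT mice, 0 of 15 exceeded 3-fold at LPS 24 h (1.62% of all probes), 4 of 45 at LPS 4 h (5.70%), 1 of 36 at SP 24 h (0.865%) and 3 of 35 at SP 4 h (4.56%). These were Tgfbr1, Smad7, Sufu and Ccn1 at LPS 4 h, Sufu at SP 24 h, and Sfrp1, Sufu and Ccn1 at SP 4 h. In the other direction 1 member, Hey2 at SP 24 h in PAR1-/- mice, lay under 0.333 of saline. Of all probes 1.21%, 1.13%, 1.42% and 2.12% lay under it in the 4 PAR1-/- comparisons and 0.375%, 0.943%, 0.486% and 1.23% in the 4 WT comparisons. The WT arrays at 4 h were those with the most probes past the limit in all, and there the members' shares were 8.89% after LPS and 8.57% after SP. The median ratio of the members lay between 0.911 and 1.06 in the 8 comparisons, beside 0.876 to 1.09 for all probes.

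**Figure D2:**
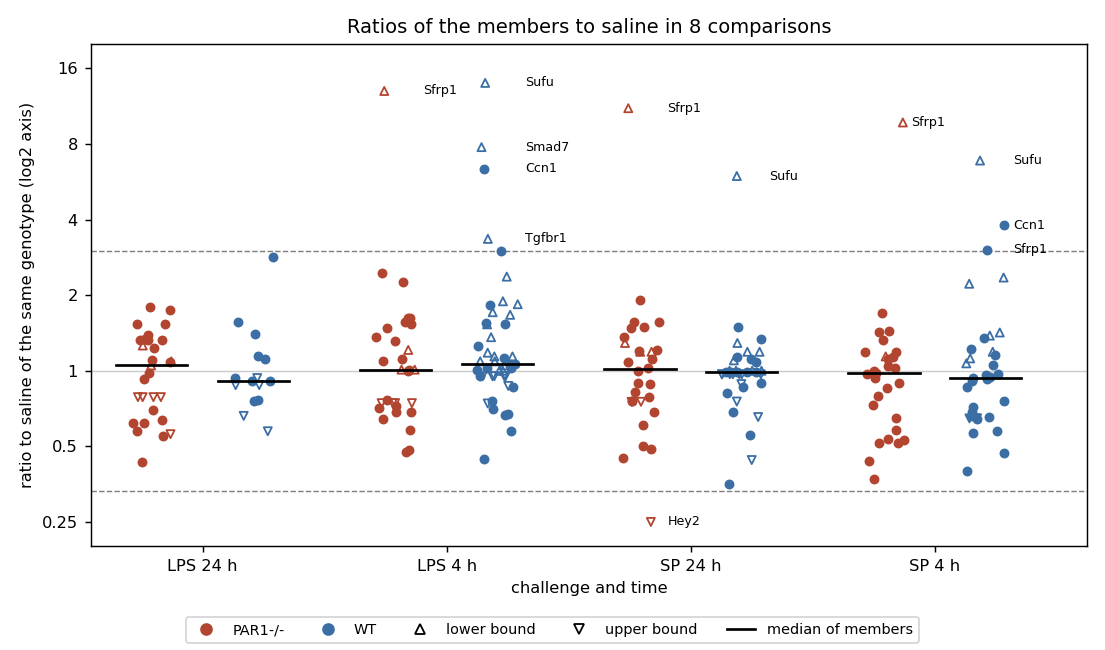
Points are the members with a ratio (filled) or a bound (open triangles) to saline of the same genotype, on a log2 axis, PAR1-/- left of WT for each challenge and time; black bars are medians of the members and dashed lines mark 3-fold either way. The medians lie close to 1 in all 8 comparisons, and the members past the lines are named.

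Ccn1, a matricellular protein that cells under stretch or serum make within hours, had the clearest difference between arrays among members measured above background throughout. Its normalized level, a unit common to the arrays of 1 probe, was 47.7, 56.3, 69.3, 42.9 and 36.2 on the PAR1-/- arrays of LPS 24 h, LPS 4 h, SP 24 h, SP 4 h and saline, and 33.1, 224, 34.8, 133 and 35.2 on the WT arrays in the same order, which is kept below. Both WT arrays at 4 h stood above the other 8 arrays, all PAR1-/- arrays among them. The ratio to saline was 1.56 in PAR1-/- mice and 6.37 in WT mice at LPS 4 h, and 1.19 in PAR1-/- mice and 3.79 in WT mice at SP 4 h. At 24 h it was 1.32 in PAR1-/- mice and 0.939 in WT mice after LPS, and 1.91 in PAR1-/- mice and 0.988 in WT mice after SP. The PAR1-/- level was 0.251 of the WT level at LPS 4 h and 0.322 of it at SP 4 h. Without normalization the ratios to saline at LPS 4 h were 3.78 in PAR1-/- mice and 12.1 in WT mice, so Ccn1 then passed 3-fold in both genotypes.

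Ccn5 (Wisp2), a CCN member that lacks the last domain of the family and one of the genes the study lists, was close to the threshold on most arrays. Its level was 19.8, 22.2, 23.6, 13.6 and 31.2 on the PAR1-/- arrays, all above background, and 24.9 and 23.5 on the WT arrays of LPS 4 h and SP 4 h. On the WT array of SP 24 h it was 22.0, just above the threshold of 21.6, and it was not above background on the WT arrays of LPS 24 h and saline. All 4 challenged PAR1-/- arrays lay under saline, at ratios of 0.635, 0.713, 0.757 and 0.437, though between 1.19 and 1.75 before normalization, so their direction rested on it. The 3 WT ratios are lower bounds of 1.14 (LPS 4 h), 1.00 (SP 24 h) and 1.07 (SP 4 h). The other CCN genes, Ccn2 among them, the connective tissue growth factor that TGF-beta induces in fibroblasts, were above background on 3 arrays or fewer.

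Of the 13 WNT ligands, Wnt6, which the study lists, was seen on every array. Wnt6, an epithelial ligand, had levels of 37.8, 42.0, 39.3, 32.3 and 87.1 on the PAR1-/- arrays and 81.7, 41.3, 32.6, 27.6 and 58.5 on the WT arrays. The PAR1-/- saline array was the highest of the 10, and the challenged PAR1-/- arrays lay close together below it, at 0.434, 0.482, 0.451 and 0.370 of saline. In WT mice the ratio was 1.40 at LPS 24 h, 0.706 at LPS 4 h, 0.556 at SP 24 h and 0.472 at SP 4 h. Before normalization the ratios were 1.14, 1.36, 1.33 and 2.08 in PAR1-/- mice and 2.59, 1.48, 0.621 and 1.62 in WT mice, so the direction of Wnt6 in PAR1-/- mice, and in WT mice at 4 h, rested on the normalization. Wnt8b was the only other WNT ligand above background on at least 4 arrays.

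Among the Frizzled receptors, Fzd7 and Fzd8 were above background on all 10 arrays and did not pass 3-fold of saline on any. Fzd7, a receptor of stem and progenitor cells in many epithelia, had levels of 123, 161, 148, 142 and 99.6 on the PAR1-/- arrays and 116, 99.7, 37.0, 67.4 and 105 on the WT arrays. The WT array of SP 24 h was the lowest, at 0.353 of saline, just inside the limit, while the 4 PAR1-/- ratios ran from 1.23 to 1.62. After SP at 24 h the PAR1-/- level of Fzd7 was 4.00 times that of WT, and at SP 4 h 2.11 times. Fzd8 had levels of 71.9, 74.5, 87.8, 152 and 116 on the PAR1-/- arrays and 131, 98.7, 194, 113 and 172 on the WT arrays, which overlap.

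Sfrp1, a secreted protein that binds WNT ligands and Frizzled receptors, carried the largest PAR1-/- ratios, and each of them rests on 1 low spot. Its intensities before normalization were 10, 458, 410, 712 and 9 on the PAR1-/- arrays and 194, 272, 35, 642 and 41 on the WT arrays. The PAR1-/- arrays of LPS 24 h and saline were at background, and the other 3 PAR1-/- arrays were among the 4 brightest for this probe. Against the background threshold of the saline array, the ratios in PAR1-/- mice were at least 13.0 at LPS 4 h, at least 11.1 at SP 24 h and at least 9.74 at SP 4 h. With the low spots counted as not measured, none of the 3 ratios is left. In WT mice, where the probe was measured throughout, Sfrp1 was 2.84 times saline at LPS 24 h, 2.99 at LPS 4 h, 0.818 at SP 24 h and 3.03 at SP 4 h. The levels at 4 h were 309 and 265 in PAR1-/- and WT mice after LPS, and 231 and 269 in PAR1-/- and WT mice after SP, ratios of 1.16 and 0.859 between genotypes that lie within the saline yardstick.

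**Figure D3:**
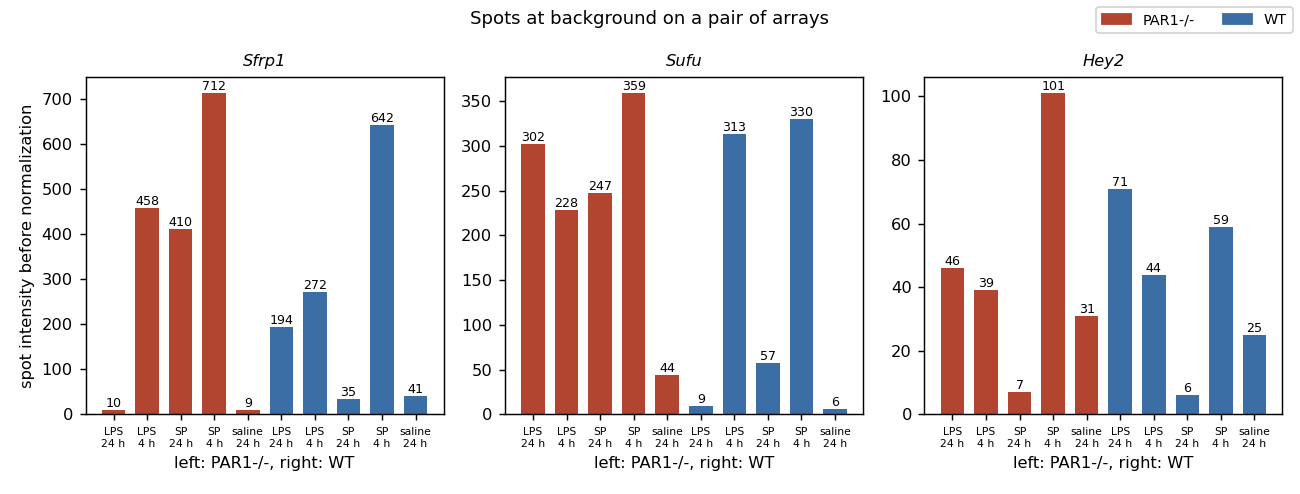
Bars give spot intensities before normalization on the 10 arrays, PAR1-/- on the left and WT on the right, for the 3 members with low spots on a pair of arrays. Sfrp1 stood at 10 and 9 on the PAR1-/- arrays of LPS 24 h and saline, Sufu at 9 and 6 on the WT arrays of LPS 24 h and saline, and Hey2 at 7 and 6 on the PAR1-/- and WT arrays of SP 24 h.

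Inside the cell, Dvl3, a Dishevelled protein that couples Frizzled receptors to beta-catenin and one of the genes the study lists, was higher at 4 h than at 24 h in both genotypes after LPS. Its levels were 28.3, 65.1, 23.6, 29.6 and 28.7 on the PAR1-/- arrays, and 52.0 and 51.4 on the WT arrays of LPS 4 h and SP 4 h, with the other 3 WT arrays not above background. After LPS at 4 h the ratio to saline was 2.26 in PAR1-/- mice and at least 2.37 in WT mice. After SP at 4 h it was 1.03 in PAR1-/- mice and at least 2.35 in WT mice, and the PAR1-/- level was 0.576 of the WT level. Axin2, a negative regulator that beta-catenin itself induces and so a common readout of WNT signalling, was measured on all arrays at 51.4, 29.5, 46.5, 37.8 and 38.8 in PAR1-/- mice and 31.9, 35.5, 30.4, 34.1 and 35.2 in WT mice. Its 8 ratios to saline ran from 0.762 to 1.32, inside the saline yardstick of 1.40-fold. Tcf7l1, a TCF factor that mostly represses, was named after its values were seen: its levels were 25.8, 31.9, 22.8, 30.4 and 46.7 in PAR1-/- mice, and in WT mice 85.1, 46.1, 43.4 and 46.6 at LPS 4 h, SP 24 h, SP 4 h and saline, with the fifth array not above background. The challenged PAR1-/- arrays did not overlap with the WT arrays that measured it, and the saline arrays differed little, at a ratio of 1.00. Before normalization the intensities overlapped, from 26 to 70 on the challenged PAR1-/- arrays and from 24 to 88 on those WT arrays. The share of all probes whose levels separate as those of Tcf7l1 did was not counted. For genotype, 11.8% of all probes had an unadjusted limma p under 0.05.

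In the hedgehog pathway, Sufu held the largest WT ratios, and these too rest on 1 low spot. Sufu, which tethers GLI factors in the cytoplasm, had intensities before normalization of 302, 228, 247, 359 and 44 on the PAR1-/- arrays and 9, 313, 57, 330 and 6 on the WT arrays, of which the values of 9 and 6 are the lowest that any probe had on those arrays. In WT mice the ratio to saline was at least 14.0 at LPS 4 h, at least 5.96 at SP 24 h and at least 6.87 at SP 4 h. In PAR1-/- mice, with a saline spot above background, it was 1.80 at LPS 24 h, 1.48 at LPS 4 h, 1.49 at SP 24 h and 1.13 at SP 4 h. With the low spots counted as not measured, no WT ratio of Sufu is left, and against the mean of both saline arrays the WT ratio was 6.16 at LPS 4 h, 2.63 at SP 24 h and 3.04 at SP 4 h. Gli1, a transcription factor that is also a direct hedgehog target, was measured throughout at 93.9, 62.9, 59.7, 86.9 and 87.1 in PAR1-/- mice and 79.1, 69.5, 156, 110 and 105 in WT mice. Its ratios to saline stayed between 0.664 and 1.49. Ihh, a ligand, was above background on the 4 challenged PAR1-/- arrays, at 25.8, 23.1, 20.5 and 18.6, and on no WT array. On the WT arrays of LPS 4 h and SP 4 h it was 21.0 and 13.7, just under the thresholds of 21.2 and 14.4. Its log2 difference between genotypes in limma was 0.05 ± 0.18 (SE). Ptch1, the receptor and a target of the pathway, was above background on 2 arrays.

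In the Notch pathway no member passed 3-fold of saline upwards. Dll1, a Notch ligand, was among the steadiest members, at 69.8, 75.9, 75.3, 59.5 and 75.1 in PAR1-/- mice and 75.3, 44.2, 65.2, 63.3 and 65.9 in WT mice, and its ratios ran from 0.672 to 1.14. Notch1, the only Notch receptor above background on at least 4 arrays, was measured at 23.1, 20.5, 17.8 and 33.7 on the PAR1-/- arrays of LPS 4 h, SP 24 h, SP 4 h and saline, and at 32.6, 22.9 and 24.4 on the WT arrays of SP 24 h, SP 4 h and saline. Its measured ratios to saline were 0.684, 0.608 and 0.528 in PAR1-/- mice and 1.34 and 0.942 in WT mice, and before normalization 1.47, 1.35 and 2.24 in PAR1-/- mice and 1.29 and 2.71 in WT mice. Heyl, a repressor that Notch induces in vascular smooth muscle, has 2 probes that disagree, 1 of them at background on all 10 arrays. The other gave 49.9, 70.2, 45.0, 41.5 and 28.7 in PAR1-/- mice, and 39.4, 24.1, 26.6 and 35.2 on the WT arrays of LPS 4 h, SP 24 h, SP 4 h and saline. The 4 challenged PAR1-/- arrays, at 1.74, 2.44, 1.57 and 1.44 times saline, lay above all WT arrays that measured it, where the ratios were 1.12, 0.684 and 0.755. The same order held before normalization, with intensities of 57, 87, 56 and 100 on the challenged PAR1-/- arrays and of at most 45 on the WT arrays. How many of all probes separate as Heyl did was not counted. Hey2, a related repressor, was at 41.7, 34.3, 41.8 and 72.1 on the PAR1-/- arrays of LPS 24 h, LPS 4 h, SP 4 h and saline and at 76.5, 42.3, 33.6 and 49.0 on the matching WT arrays. Its ratio of at most 0.250 in PAR1-/- mice at SP 24 h, and the WT bound of at most 0.441 beside it, both come from the low spots on the SP 24 h arrays. The measured ratios were 0.578, 0.476 and 0.580 in PAR1-/- mice and 1.56, 0.864 and 0.687 in WT mice. Before normalization all 6 were above 1, at 1.48, 1.26 and 3.26 in PAR1-/- mice and 2.84, 1.76 and 2.36 in WT mice.

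In the TGF-beta family, Smad7 and the receptor gene Tgfbr1 stood out on 1 array, WT LPS at 4 h. Smad7, the inhibitory SMAD that TGF-beta and inflammatory signals induce, had levels of 29.9, 23.9, 30.5 and 12.8 on the 4 challenged PAR1-/- arrays and was not above background on PAR1-/- saline. In WT mice it was 170 at LPS 4 h and 31.2 at SP 4 h, and not above background on the other 3 arrays. The ratio to saline at LPS 4 h was at least 1.01 in PAR1-/- mice and at least 7.77 in WT mice, and the PAR1-/- level was 0.140 of the WT level. After SP at 4 h the WT bound was at least 1.42, no ratio could be given in PAR1-/- mice, and the PAR1-/- level was 0.410 of the WT level. Tgfbr1, the type I receptor that phosphorylates SMAD proteins, had levels of 29.1, 42.8, 23.6, 25.8 and 26.3 in PAR1-/- mice, and of 73.4, 24.1 and 26.1 on the WT arrays of LPS 4 h, SP 24 h and SP 4 h, with the other WT arrays not above background. Its ratio at LPS 4 h was 1.62 in PAR1-/- mice and at least 3.35 in WT mice, and the PAR1-/- level was 0.583 of the WT level. That WT bound fell to at least 2.38 when all arrays were held to the highest threshold. Acta2, the only 1 of 7 smooth muscle probes to pass 3-fold of saline upwards, did so on WT LPS 4 h (4.26) and on WT LPS 24 h (3.74). The part of smooth muscle in the values of Ccn1, Smad7 and Tgfbr1 on WT LPS 4 h was not tested.

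**Figure D4:**
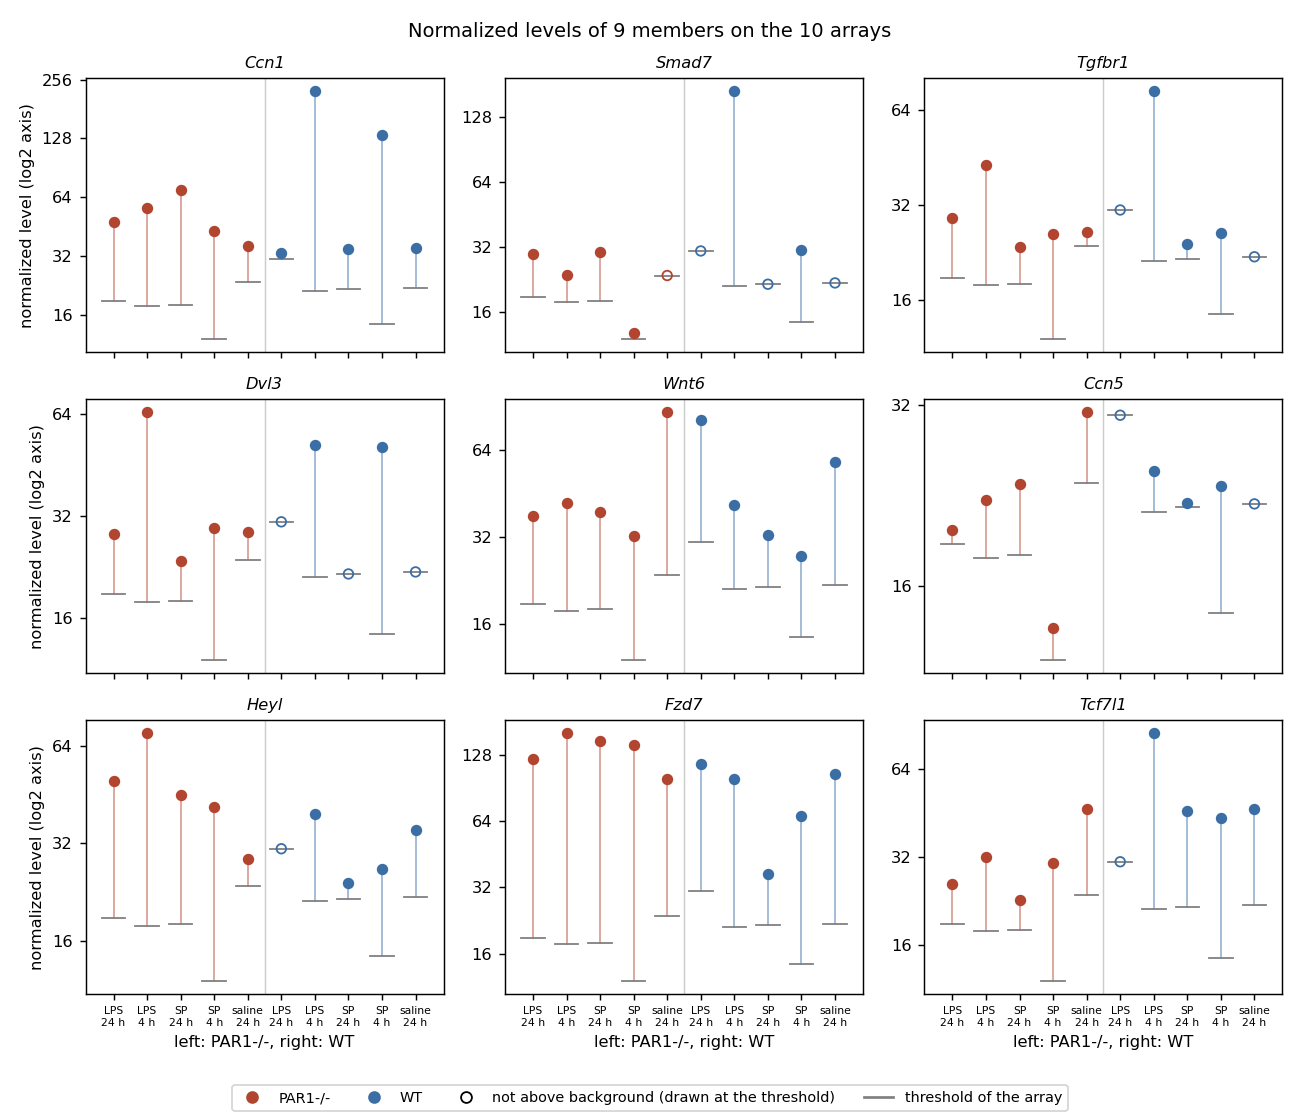
Each panel gives the normalized level of 1 member on the 10 arrays (log2 axis), PAR1-/- in red on the left and WT in blue on the right; open points are spots not above background, drawn at the threshold of their array (grey bars). Ccn1 is high on both WT arrays at 4 h, Smad7 and Tgfbr1 on WT LPS 4 h, and Heyl and Fzd7 lie higher on the challenged PAR1-/- arrays than on the WT arrays of SP.

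The ligands of the family were mostly at background. Gdf5, a BMP-type ligand of joints and tendon, was measured throughout at 52.1, 110, 93.7, 93.7 and 84.1 in PAR1-/- mice and 71.4, 120, 70.1, 106 and 78.5 in WT mice. In both genotypes the LPS array at 4 h was above that at 24 h, and the 8 ratios to saline ran from 0.619 to 1.53. Bmp10, a ligand known from the embryonic heart, was above background on 9 arrays, with ratios to saline of 1.54, 0.996, 1.36 and 1.19 in PAR1-/- mice and of 1.55, 0.987 and 1.22 in WT mice (LPS 4 h, SP 24 h and SP 4 h). Tgfb1 and Tgfb3 rose above background on 1 array each, WT LPS at 4 h, with lower bounds to saline of 1.67 and 1.09. Acvr2b, an activin receptor that the study lists, was above background on 5 arrays: PAR1-/- LPS 4 h at 20.6 and SP 24 h at 18.1, and WT LPS 4 h at 23.9, SP 24 h at 22.0 and SP 4 h at 17.0. Its ratios to saline could be given only as bounds of at least 1.09 and 1.00, in WT mice at LPS 4 h and SP at 24 h.

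The study asked for genes above 3-fold of saline in at least 1 WT comparison and not altered in PAR1-/- mice. It names no limit for not altered. Here a gene counted as altered only where a PAR1-/- value was shown to lie outside 3-fold. A low lower bound or a missing ratio thus passed as not altered. Of the members, 4 met this rule (Tgfbr1, Smad7, Sufu and Ccn1), where 5.59% of all probes with a WT ratio did. The mirror rule, with genotypes exchanged, was met by 0 members (1.81% of all probes). The PAR1-/- ratios of Tgfbr1, Sufu and Ccn1 were all measured. Those of Smad7 were lower bounds of 1.26 (LPS 24 h), 1.01 (LPS 4 h) and 1.29 (SP 24 h), with none at SP 4 h. Smad7 was therefore not shown to stay within 3-fold in PAR1-/- mice. The members that the study lists, Wnt6, Ccn5, Dvl3 and Acvr2b, did not meet the rule here. The highest WT ratio of Wnt6 was 1.40. For Ccn5, Dvl3 and Acvr2b the highest WT values were lower bounds of 1.14, 2.37 and 1.09, which do not fix the ratio. This rule on its own tests no difference between genotypes. Of the 8 other ways of processing tried, Smad7 met the rule under 8, Ccn1 under 7, and Tgfbr1 and Sufu under 5 each. With low spots counted as not measured, Sufu left the list and Sfrp1 entered it, since its PAR1-/- ratios were then missing. Set directly against WT, the PAR1-/- arrays had Ccn1 and Smad7 under 0.333 of WT at LPS 4 h (4.04% of all probes were) and Ccn1 at SP 4 h (2.57%), Fzd7 and Sfrp1 above 3-fold at SP 24 h (1.97%), and Sufu above 3-fold at LPS 24 h (2.92%) and in saline (0.993%). Sfrp1 was under 0.333 of WT at LPS 24 h (3.42%) and in saline (0.409%). These last 4 values of Sufu and Sfrp1 rest on the low spots.

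Tests across arrays could use the 10 arrays only by treating conditions as replicates of genotype, time or stimulus. In limma, 0 of 35 members passed a Benjamini-Hochberg adjusted p of 0.05 for genotype (PAR1-/- minus WT, paired by condition; 0% of 2011 probes did), challenge minus saline (0.0995%), 24 h minus 4 h (0%), LPS minus SP (0%) or the interaction of genotype and challenge (0%). At an unadjusted p of 0.05, limma gave 4, 5, 5, 2 and 1 members in these 5 tests, 11.4%, 14.3%, 14.3%, 5.71% and 2.86% of the members, beside 11.8%, 11.5%, 12.9%, 8.11% and 4.67% of all probes. Several of these genes were named after their values were seen. For genotype they were Tcf7l1, with a log2 difference of -0.64 ± 0.23 (SE), Fzd7 at 0.75 ± 0.29, Heyl at 0.56 ± 0.22 and Dvl1 at 0.48 ± 0.22, with adjusted p of 0.372 to 0.419 in limma. For challenge they were Wnt6 (-0.85 ± 0.31), Wnt8b (-0.76 ± 0.32), Hey2 (-0.74 ± 0.29), Sufu and Sfrp1, and the estimates of the last 3 contain the low spots. Before normalization Wnt8b was 1.52, 1.33, 1.19 and 3.57 times saline on the challenged PAR1-/- arrays. In WT mice it was 0.926 at LPS 4 h, 1.00 at SP 24 h and 1.30 at SP 4 h, and not above background at LPS 24 h. Most of its decrease thus rested on the normalization. For time, Dvl3 was lower at 24 h by -0.88 ± 0.24 with an unadjusted limma p of 0.00397 and an adjusted p of 0.364. Gdf5 (-0.61 ± 0.21), Ccn1 (-1.06 ± 0.45) and Tgfbr1 (-0.51 ± 0.22) were also lower, while the estimate for Bmp5 was higher (0.53 ± 0.23). Bmp5 was above background at 24 h only on PAR1-/- SP. Its other challenged 24 h values are thresholds, 18.8 for PAR1-/- LPS, 30.8 for WT LPS and 21.6 for WT SP. For stimulus, Tgfbr1 (0.72 ± 0.22) and Hey2 (0.77 ± 0.26) were higher after LPS than after SP, with an adjusted limma p of 0.568 for both. Both SP 24 h values of Hey2 are low spots. For Tgfbr1, the WT LPS 24 h value is the threshold of 30.8, above its SP levels of 23.6 to 26.1. With low spots counted as not measured, 3 members for challenge and 1 for stimulus had an unadjusted limma p under 0.05. For the interaction, Heyl had a log2 difference of 1.06 ± 0.40 and an adjusted limma p of 0.878.

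Other genes of the pathways were few on the array, many were at background, and few passed 3-fold of saline. Of 19 further WNT pathway probes, 7 were above background on at least 4 arrays, beta-catenin (Ctnnb1), Apc and the secreted inhibitor Wif1 among them, 0 passed 3-fold of saline upwards, and Btrc, which marks beta-catenin for destruction, was at 0.325 in WT mice at LPS 4 h. Of 6 hedgehog probes 0 passed 3-fold either way, but 3 were never above background and only 1 was on at least 4 arrays. Of 13 Notch probes 0 passed upwards, with 7 never above background and 4 above it on at least 4 arrays. Probes never above background have no ratio. Hdac1, a corepressor among the Notch probes, was at 0.290 in PAR1-/- mice at SP 4 h. Its intensities of 26 there and 21 in saline run the other way. Of 24 TGF-beta family probes, 9 were above background on at least 4 arrays and Lefty1, a secreted antagonist of Nodal, had a lower bound of 3.79 in WT mice at LPS 4 h, where the bound in PAR1-/- mice was 1.01.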

How the data were processed

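The authors hybridized radioactively labelled cDNA to Clontech Atlas mouse plastic 5 K arrays and quantified the spots with AtlasImage. The values they deposited are scores: within a gene their logarithms average 0 and have the same spread for every gene, which was read from the values, since the methods do not state it. Spot intensities were recovered as the whole numbers (up to 3000) that give a probe's 10 scores, for 4966 of 5030 probes; the search was tested on simulated data, as were the tests below.

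Probe names came from the platform annotation (4633 with 1 gene, 5 with several, 392 with none). The background mode is the peak of a kernel density and the threshold lies 3 SD above it. Arrays were normalized by robust regression (MASS 7.3.60.0.1), each array on the mean array in log2 units, over 480 probes above background on all 10, and values under the threshold were raised to it. limma 3.58.1 was fitted to 2011 probes above background on at least 4 arrays (4 residual degrees of freedom, R 4.3.3). Intensities limit precision by their number, 1 array per condition. GEO's titles give only numbers, so arrays were grouped by the treatment protocol and design text.

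The members and lists were chosen with earlier results of these data known. Named are the members the study lists, those beyond 3-fold, past an adjusted p or above background on all arrays, those leading their role by mean intensity, and those with more than 1 probe; the others (Tcf7l1, Wnt8b, Dvl1, Bmp5, Ccn2, Ptch1, Tgfb1, Tgfb3, Ctnnb1, Apc, Wif1 and the marker genes) were named after their values were seen. Alternatives changed the normalization, threshold, saline reference, fold limit, filter and arrays used; 3 more (a threshold of 28 on WT LPS 24 h, a common floor, low spots as not measured) were added after seeing the data. Promoters are RefSeq's, on GRCm38.p6.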

Additional observations from a re-analysis of the deposited data

How the results depend on the processing

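Precision was limited by 1 array per condition, by the fill value on WT LPS 24 h and by the dimness of both saline arrays, which sets the bounds. The normalization decides most counts of members beyond 3-fold of saline. Without it these were 8, 9, 10 and 24 in PAR1-/- mice (LPS 24 h, LPS 4 h, SP 24 h, SP 4 h) and 1, 11 and 18 in WT mice (LPS 24 h, LPS 4 h, SP 4 h), and 8 members met the mirror rule, with 3 members, Smad7 among them, meeting the rule itself. An equal shift of all arrays gave 6 for PAR1-/- SP 4 h. Against the mean of both saline arrays the counts were 1 and 2 in PAR1-/- mice after LPS at 24 h and 4 h, and 1 and 0 in WT mice after LPS and SP at 24 h. At a limit of 2-fold they were 1, 5, 4 and 3 in PAR1-/- mice and 1, 7, 3 and 7 in WT mice, and 1 member (Heyl) met the mirror rule. A threshold of 2 SD, and one of 28 on WT LPS 24 h, each let 1 member (Sfrp1) meet the mirror rule. With a common floor 1 member was left for PAR1-/- SP 24 h. With low spots as not measured, 0 members were left in 3 PAR1-/- comparisons (LPS 4 h, SP 24 h, SP 4 h) and in WT SP 24 h. In limma, members past an adjusted p of 0.05 numbered 2 for genotype, 18 for challenge and 7 for time without normalization, 1, 2 and 1 for these tests with an equal shift, and 3, 3 and 3, with 2 for stimulus, when all probes were tested. On the deposited scores 40 were called for challenge, and with a common floor 1 (Ccn5) for the interaction. An intensity trend, probes above background on all arrays, low spots as not measured and the threshold of 28 gave 0 in all 5 tests. Without any 1 array the counts ranged from 0 to 0, except that the interaction could not be fitted without a saline array. No paired analysis was possible because each group holds 1 array, apart from the pairing of genotypes within a condition that the genotype test uses. The causes of these differences were not tested.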
